A study of Mus musculus with 24 samples.

Results

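TET2 CLIP was set against its input in clone 75, 1 of the study's independent mouse embryonic stem cell clones that carry tagged TET2. All rows of the count table with enough counts were kept as members, by the count filter of edgeR over the 8 CLIP libraries. That left 10334 of 53900 genes. The remaining 43566 rows were not tested, and 21650 of the 53900 rows had no count in any library of clone 75. Of the 10334 genes, 8914 also passed the filter within clone 75 alone, and the other 1420 passed it through clone 65, the second tagged clone.

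The cells were E14 mouse embryonic stem cells with the strain label E14; Tet2HA-His, so TET2 carried HA and His tags in TET2 CLIP and input alike. In clone 75 there were 2 TET2 CLIP libraries and 2 input libraries, and clone 65 had the same number of each. They are 4 of 24 libraries in the series, and the replicates are described as biological. Every culture, input included, had been fed 4-thiouridine (4SU, a uridine analogue that crosslinks to bound protein under ultraviolet light) at 500 µM for 4 hours. The cells were then irradiated with 400 mJ/cm2 of UVB, and libraries were made with a custom version of eCLIP (enhanced crosslinking and immunoprecipitation). They had been grown in 1 µM PD0325901 and 3 µM CHIR99021 beside LIF, a medium that keeps stem cells in a naive state. Clone 75 is a single clone, and no CLIP library of untagged cells was analysed here, so the values compare the RNA recovered in TET2 CLIP with the input of the same tagged clone.

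The TET enzymes are known for turning the methyl mark on DNA cytosine into hydroxymethylcytosine, and TET2 can do the same to methylated cytosine in RNA. Transfer RNAs are among the most heavily cytosine-methylated RNAs of the cell. CLIP recovers the RNA that was crosslinked to a protein in living cells, or that came down beside it.

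The TET2 CLIP libraries of clone 75 held 453944 counts in replicate 1 and 254996 in replicate 2, against 913002 and 2277721 counts in the inputs. The chi-square of the replicate counts per degree of freedom was 2.72 between the TET2 CLIP libraries and 1.82 between the inputs, so both pairs differed by more than counting noise. All 10 stem cell markers passed the count filter, with summed levels of 1169 and 1722 CPM in TET2 CLIP and 1331 and 1462 CPM in input. CPM are counts scaled to a common library total, here with the TMM factor (a scaling by which most genes come out equal between libraries). They are not per length, so levels of different genes are not compared. The 6 markers of extraembryonic endoderm summed to 10.7 and 11.3 CPM in TET2 CLIP and to 7.51 and 12.3 CPM in input, with Afp at 0 in both TET2 CLIP libraries and none of the 6 with enough counts to be tested. The 6 fibroblast markers summed to 15.0 and 3.78 CPM against 3.76 and 9.08 CPM, with Dcn and Col3a1 at 0 in both TET2 CLIP libraries. The 3 trophoblast markers summed to 0 and 7.55 CPM against 2.5 and 1.82 CPM, with Cdx2 at 0 in both TET2 CLIP libraries. These are short lists. Wider ones of 13, 10 and 7 genes, which add extracellular matrix genes and Gata3, held 0.120% and 0.150% of counts in TET2 CLIP against 0.0850% and 0.0983% in input for extraembryonic endoderm, 0.0804% and 0.0929% against 0.113% and 0.125% for fibroblasts, and 0.00595% and 0.0114% against 0.0388% and 0.0453% for trophoblast. Among the members called, Gata3, Fn1 and the endoderm list genes Sparc, Lama1 and Lamc1 were lower, and Col4a2 was higher. Col4a2 alone held 281 and 217 counts in TET2 CLIP against 23 and 77 in input. The 6 tested genes of the wider endoderm list had a median log2 change of -0.82, so its higher share does not stand for most of them. The part of other cell types in the results was not tested. Throughout, values of a group are given for replicate 1 and then replicate 2, log2 changes are TET2 CLIP over input with their standard error, and adjusted p is that of edgeR's quasi-likelihood test with Benjamini-Hochberg adjustment over the 10334 genes. Such a p measures the spread between these libraries.

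In TET2 CLIP of clone 75, nuclear tRNA, small nuclear RNA, 5S rRNA and a class of structured RNAs such as RNase MRP RNA rose. Most messenger RNAs were called neither way, and snoRNA and scaRNA genes leaned downward (median log2 change -0.56). The test called 639 genes higher, 6.18% of those tested, and 407 genes lower, 3.94%. The median log2 change over all tested genes was 0.05. With libraries scaled by their totals alone, this median shifted by 0.14, and 834 genes were called higher and 271 lower. Without the count filter the balance turned, with 436 genes higher and 601 lower. With the replicate number as a block, 382 genes were called higher and 264 lower. TET2 CLIP and input libraries did not overlap for 628 of the higher genes (6.08% of those tested) and for all 407 lower genes (3.94%), whereas 26.9% and 23.9% of tested genes were without overlap in each direction, called or not. The counts moved with single libraries. The higher calls fell to 261 without input replicate 2 and 378 without input replicate 1 of clone 75, to 342 without TET2 CLIP replicate 1, and to 378 and 390 without input replicate 1 or 2 of clone 65. The lower calls came to 219 without input replicate 2 and 245 without TET2 CLIP replicate 1 of clone 75, and to 756 and 752 without TET2 CLIP replicate 1 or 2 of clone 65. Such a fit leaves 1 library in that group, which is assumed to vary like the others.

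The shift in RNA class was visible in raw counts, before any test or filter. tRNA, small nuclear RNA (snRNA), structured RNA and nuclear rRNA genes together took 12% and 11.1% of the counts in TET2 CLIP, against 2.61% and 2.75% in input. The snRNA genes were the main part of this, with 8.63% and 7.61% of counts in TET2 CLIP and 1.89% in each input. Structured RNAs (RNase MRP, RNase P, 7SK, 7SL, Y, vault and telomerase RNA) held 1.76% and 2.2% against 0.311% and 0.365%. Nuclear rRNA genes, almost all of them 5S, held 1.01% and 0.784% against 0.251% and 0.316%, and nuclear tRNA genes 0.588% and 0.515% against 0.158% and 0.181%. The mean shares in TET2 CLIP were 5.85 times those in input for structured RNAs, 4.29 times for snRNA, 3.26 times for tRNA and 3.16 times for the rRNA class. In each of these classes both TET2 CLIP libraries lay above both inputs. The rRNA value is that of 5S RNA in the main, since 61 of the 62 tested genes were 5S. The 1 other tested gene, a 5.8S gene, was lower, and no 18S or 28S gene was among those tested. With 2 libraries against 2, an exact two-sided permutation test of a share cannot pass 0.05, so these shares carry no p. The 95% Wilson interval of a share was at most 0.103 percentage points to either side for these 4 classes, and it covers counting error only.

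**Figure D1:**
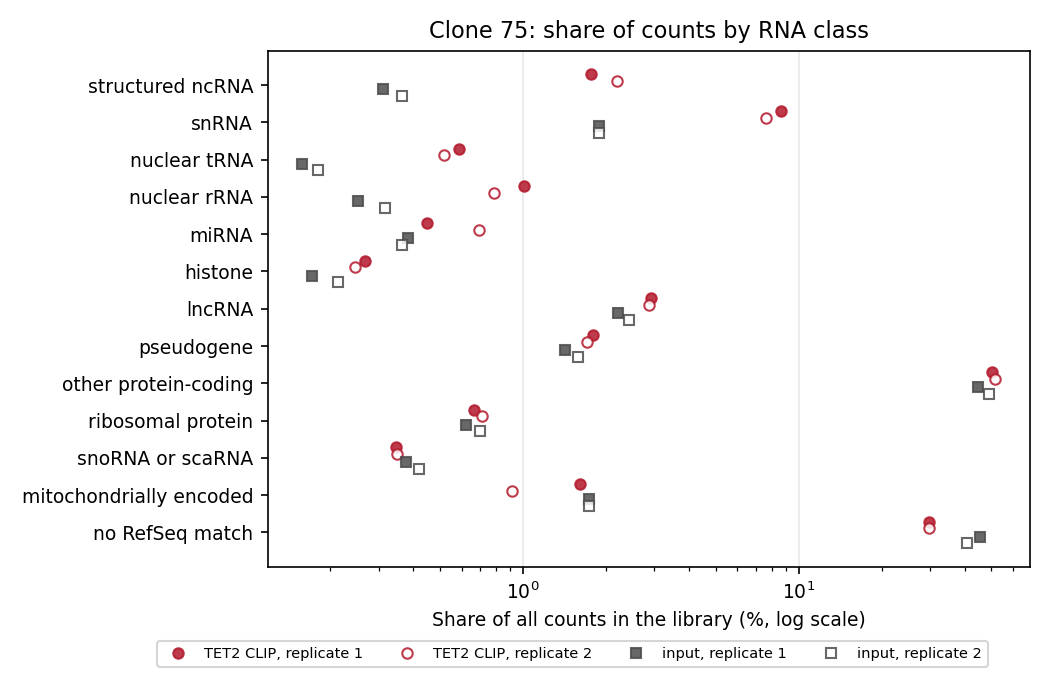
Share of all counts of a library taken by each RNA class in clone 75, in percent on a log axis, with TET2 CLIP as circles and input as squares and 1 symbol per library. The structured RNA, snRNA, tRNA and rRNA classes lie to the right of their inputs in both replicates, with snRNA at 8.63% and 7.61% in TET2 CLIP against 1.89% in each input.

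A large share of every library came from a single row with no RefSeq entry. Gm26917 took 19.4% and 20.2% of counts in TET2 CLIP and 34.3% and 30.5% in input, and was lower in TET2 CLIP by the test (log2 change -0.89 ± 0.20, adjusted p = 0.0030). CT010467.1 (log2 change -0.96 ± 0.21, adjusted p = 0.0017) and Gm42418 (-1.80 ± 0.20, adjusted p = 7.3e-08) were lower as well, and these rows were named after their values were seen. What these rows stand for is not given in the sources used here. Because they take so much of the input, the shares of all other classes depend on them. Without Gm26917 the ratio of mean shares, TET2 CLIP over input, was 4.94 for structured RNAs, 3.61 for snRNA, 2.74 for tRNA and 2.67 for rRNA, and it came to 0.916 for protein-coding genes other than histones and ribosomal proteins, in place of 1.09.

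Counted by calls, tRNA, snRNA, structured RNA and rRNA genes made up 3.08% of the genes tested (318 genes) and 34.1% of those called higher (218 genes), with 5 called lower. By class, the test called higher 56 of 80 tRNA genes, 106 of 166 snRNA genes, 47 of 62 rRNA genes and 9 of 10 structured RNA genes. Their median log2 changes were 2.56, 2.27, 1.91 and 1.53, in that order, and the test called lower 2, 1, 1 and 1 of them. Protein-coding genes other than histones and ribosomal proteins had a median of 0.00 with 218 of 8438 higher and 304 lower, and lncRNA genes had a median of 0.41 with 39 of 257 higher and 17 lower. The 39 came to 18, 11 and 17 without input replicate 1, input replicate 2 or TET2 CLIP replicate 1 of clone 75, and to 19 and 21 without input replicate 1 or 2 of clone 65. snoRNA and scaRNA genes, which guide RNA modification, had a median of -0.56 with 3 of 56 higher and 10 lower. A gene scarce in input could enter the test only through high counts elsewhere, in either clone, so the tested members of a small class are not all of its genes. Of the genes called higher, 44 passed the filter through clone 65 alone, 12 of them tRNA and 12 of them snRNA genes. In the fit to clone 75 alone, 43 of 55 tRNA genes, 96 of 115 snRNA genes, 47 of 57 rRNA genes and 7 of 9 structured RNA genes were called higher.

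**Figure D2:**
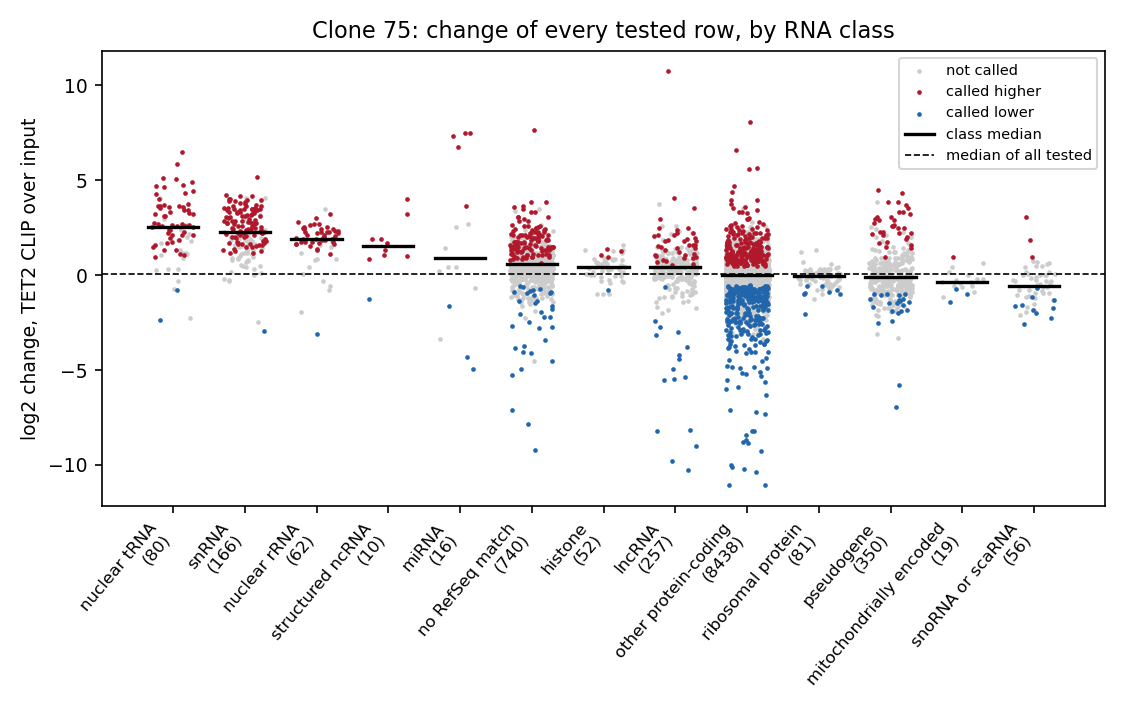
Log2 change, TET2 CLIP over input in clone 75, of every tested gene by RNA class, with 1 point per gene and a line at the class median. The medians of tRNA (2.56), snRNA (2.27), nuclear rRNA (1.91) and structured RNA (1.53) stand above that of the other protein-coding genes (0.00).

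Transfer RNAs, which decode the codons of messenger RNA into amino acids, rose across most anticodons. There were 435 nuclear tRNA rows, each named by chromosome, number and anticodon, of which 214 had no count in any library of clone 75 and 355 were not tested. All tRNA rows together held 2671 and 1314 counts in TET2 CLIP and 1447 and 4112 counts in input. Of the 80 tested, 56 were called higher and 2 lower, and 75 had a log2 change above 0. The rows under the filter, which no test chose, held 0.0557% and 0.0369% of counts in TET2 CLIP against 0.0130% and 0.0124% in input. The call count was 20 without input replicate 2 and 32 without input replicate 1 of clone 75, 28 without TET2 CLIP replicate 1, and 34 and 35 without input replicate 1 or 2 of clone 65.

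Near-identical tRNA genes share reads, and how the authors divided such reads is not given in the sources used here, so values of single tRNA genes are uncertain. Counts were therefore also summed over all genes with the same anticodon. Of 52 anticodons, 37 could be tested as sums, and 30 were called higher and 0 lower, with a median log2 change of 2.21. The libraries of 34 sums did not overlap and were higher in TET2 CLIP, beside 26.9% of all tested genes, and those of 1 sum were lower. For AlaAGC, the alanine tRNA and the sum with the most counts, TET2 CLIP held 1055 and 930.0 CPM against 383 and 377 CPM in input (log2 change 1.39 ± 0.18, adjusted p = 6.9e-07). For GluCTC the values were 767 and 689 CPM against 293 and 288 CPM (1.33 ± 0.17, adjusted p = 7.7e-07). For both anticodons the TET2 CLIP libraries lay far above their inputs, with a change smaller than the median of the sums.

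Other anticodons had larger changes and few counts in input. ArgCCT, an arginine tRNA, had 164 and 147 CPM in TET2 CLIP against 6.26 and 12.7 CPM in input (log2 change 3.84 ± 0.30, adjusted p = 6.0e-11). GlnCTG, a glutamine tRNA, had 79.0 and 82.8 CPM against 6.26 and 3.62 CPM (4.19 ± 0.44, adjusted p = 1.7e-08). GlyTCC, a glycine tRNA, had 314 and 309 CPM against 35.1 and 58.9 CPM (2.60 ± 0.20, adjusted p = 3.3e-11). In these 3 sums the TET2 CLIP replicates lay close together, while the inputs were further apart. SeCTCA, the tRNA that inserts selenocysteine at recoded stop codons, was higher too, but its TET2 CLIP libraries were far apart at 130.2 and 30.1 CPM, against 6.26 and 8.15 CPM in input (3.58 ± 0.45, adjusted p = 5.5e-07). LeuTAG was as uneven, with 89.7 and 22.6 CPM against 7.52 and 9.06 CPM.

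Not every tRNA took part. GlyCCC, another glycine tRNA, had 102 and 113 CPM in TET2 CLIP against 142 and 154 CPM in input (log2 change -0.49 ± 0.20, adjusted p = 0.12), the 1 sum whose libraries lay below input without overlap. AlaTGC had 115 and 97.9 CPM against 76.4 and 109.6 CPM (0.14 ± 0.22, adjusted p = 0.78), and its libraries overlapped. The other sums that missed the threshold were PheGAA, ArgACG, AlaCGC, SerAGA and ProCGG, with log2 changes of 1.10 to 2.87 at low counts. So glycine and alanine tRNAs held both called and uncalled anticodons, and whether those anticodons differ from each other was not tested.

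**Figure D3:**
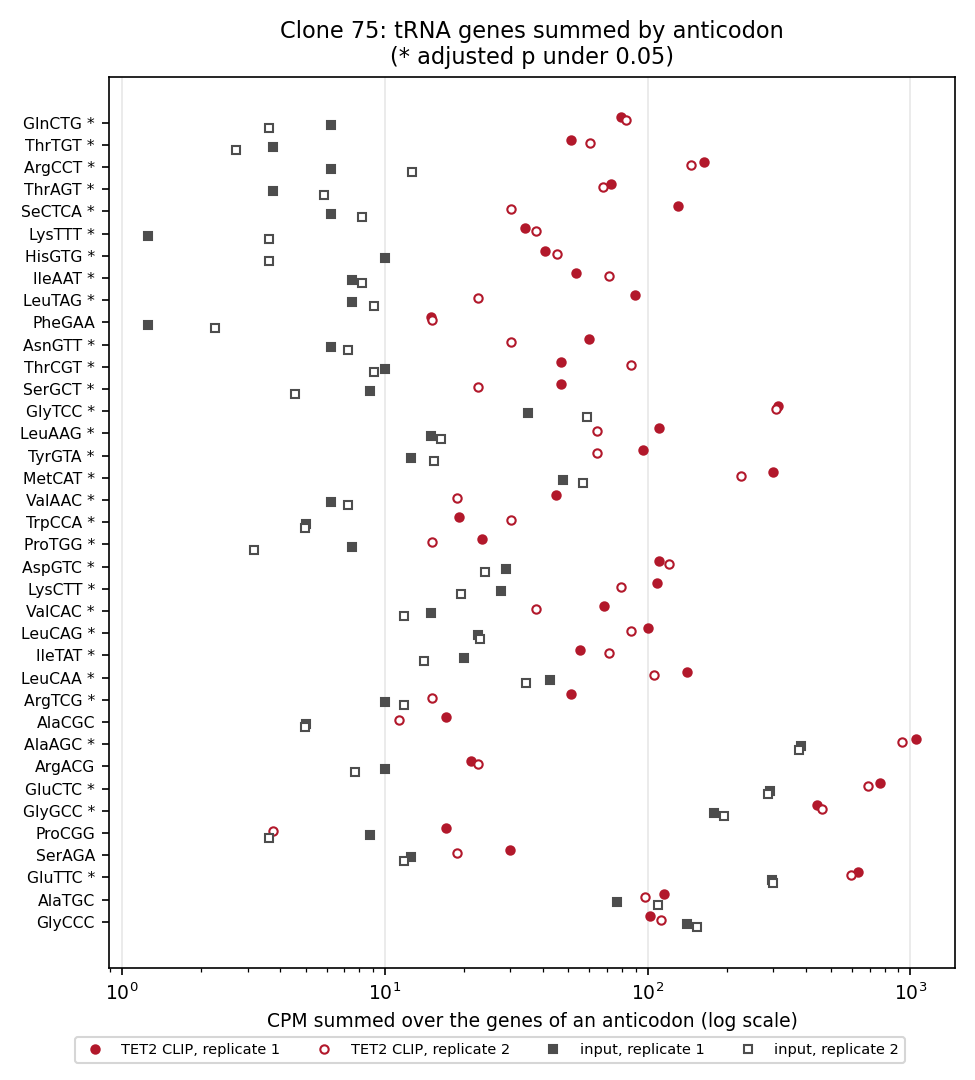
Summed CPM of the tRNA genes of each tested anticodon in clone 75, on a log axis, ordered from the highest log2 change at the top to the lowest, with TET2 CLIP as circles and input as squares. The 30 sums with a star passed the test, and GlyCCC at the bottom is the 1 sum whose TET2 CLIP libraries (102 and 113 CPM) lie below both inputs (142 and 154 CPM).

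The initiator and elongator methionine tRNAs share the anticodon CAT, and the gene with the highest change among the 10 tRNA genes with the smallest p was chr13.tRNA99-MetCAT, at 124 and 79.3 CPM in TET2 CLIP against 3.76 and 4.09 CPM in input (log2 change 4.71 ± 0.42, adjusted p = 7.6e-10). chr6.tRNA107-ArgCCT had 83.3 and 98.2 CPM against 2.5 and 4.54 CPM (4.46 ± 0.42, adjusted p = 2.1e-09). chr13.tRNA64-GlnCTG had 55.6 and 56.6 CPM against 5.01 and 1.82 CPM (4.34 ± 0.55, adjusted p = 6.8e-07). These 3 genes had 2 to 10 counts in each input library. The rest of those 10 genes, all higher, were chr1.tRNA1012-GlyTCC (log2 change 2.58), chr13.tRNA67-AlaAGC (2.14), chr3.tRNA754-GluTTC (3.46), chr1.tRNA706-GlyGCC (2.36), chr13.tRNA1013-GluCTC (2.56), chr10.tRNA866-AspGTC (2.63) and chr7.tRNA88-SeCTCA (3.65). The call of chr7.tRNA88-SeCTCA was lost without TET2 CLIP replicate 1 of clone 75. The 2 genes called lower, named after their values were seen, were chr3.tRNA752-GlyCCC, with 15.0 and 37.8 CPM in TET2 CLIP against 116 and 125 CPM in input, and chr1.tRNA1555-GluTTC, with 89.8 and 86.9 CPM against 165 and 142 CPM.

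Small nuclear RNAs are the RNA cores of the spliceosome. Their genes come in large families of near-identical copies and pseudogenes, so counts of single rows are uncertain, and most rows carry only a serial name. In TET2 CLIP of clone 75, 106 of 166 tested snRNA genes were called higher and 1 lower (Gm24596, named after its value was seen), beside 6.18% and 3.94% of all genes tested. The count was 58 without TET2 CLIP replicate 1 and 66 without input replicate 2 of clone 75. Of the 909 rows with no family name, 158 were tested and 99 called higher, with a median log2 change of 2.29. Of 21 named rows, U3 rows included, 8 were tested and 7 called higher, with 0 called lower by edgeR, before adjustment (p under 0.05) or by DESeq2.

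Among named snRNAs, U1, which recognises the 5′ splice site, was called higher at each of its 3 tested genes. Rnu1b1 (GRCm38.p6 chromosome 3, 96359953 to 96360117) held 2036 and 1397 CPM in TET2 CLIP against 255 and 251 CPM in input (log2 change 2.77 ± 0.19, adjusted p = 4.7e-12). Rnu1b6 (chromosome 3, 96460024 to 96460189) held 1607 and 1680.5 CPM against 342 and 343 CPM (2.26 ± 0.18, adjusted p = 1.2e-10), and Rnu1b2 held 385 CPM in each TET2 CLIP library against 110.2 and 89.9 CPM (1.99 ± 0.16, adjusted p = 1.4e-10). The TET2 CLIP libraries of all 3 lay far above their inputs. Rnu12, the U12 RNA of the minor spliceosome, held 902 and 1035 CPM against 319 and 298 CPM (1.65 ± 0.18, adjusted p = 2.5e-08). Rnu5g, a U5 RNA, held 1949 and 1001 CPM against 675 CPM in each input (1.14 ± 0.21, adjusted p = 0.00030), and its call was lost without TET2 CLIP replicate 1 of either clone or replicate 2 of clone 65. U3 RNA, filed by RefSeq among snRNAs although it works in the nucleolus on pre-rRNA, was higher at Rnu3b3 (2.51 ± 0.33) and Rnu3a (1.29 ± 0.27), the call at Rnu3a being lost without input replicate 2 or TET2 CLIP replicate 1. At Rnu3b4 it had 325 and 412 CPM against 308 and 219.7 CPM and missed the threshold (0.49 ± 0.18, adjusted p = 0.076).

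Several snRNA genes with serial names were among the 12 genes called higher that had the smallest p. Gm25939 (chromosome 1, 72255008 to 72255198) held 10381 and 10313 CPM in TET2 CLIP against 1133 and 1035 CPM in input (log2 change 3.26 ± 0.20, adjusted p = 3.9e-13). Gm23966 (chromosome 1, 58466515 to 58466621) held 293 and 162 CPM against 15.0 and 15.4 CPM (3.97 ± 0.27, adjusted p = 2.5e-12). Gm24018 (3.41 ± 0.21) and Gm25541 (2.74 ± 0.19) were higher in the same way. Gm23849, which has no RefSeq entry, held 4306 and 4331 CPM against 404 and 365 CPM (3.49 ± 0.20, adjusted p = 1.2e-13). These 5 genes had both TET2 CLIP libraries far above both inputs.

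Of the structured RNAs, RNase MRP RNA changed the most. Rmrp (chromosome 4, 43492785 to 43493059, the row ENSMUSG00000115420), the RNA of the enzyme that cuts pre-rRNA, held 8935 and 11091 CPM in TET2 CLIP against 647 and 612 CPM in input (log2 change 3.99 ± 0.22, adjusted p = 5.5e-14). It made up 0.921% and 1.15% of TET2 CLIP counts and 0.0566% and 0.0592% of input counts. Rpph1 (chromosome 14, 50807447 to 50807771), the RNA of the related RNase P that trims the 5′ end of pre-tRNA, held 686 and 884 CPM against 180.3 and 225 CPM (1.92 ± 0.19, adjusted p = 5.6e-09). Rn7sk (chromosome 9, 78175302 to 78175633), the 7SK RNA that holds the elongation factor P-TEFb inactive, held 5308 and 6019.5 CPM against 1437 and 1549 CPM (1.92 ± 0.20, adjusted p = 1.4e-08). In all 3, replicate 2 of TET2 CLIP was the higher library and both lay above input. Named after their values were seen, the RNase P RNA-like genes Rprl3 (log2 change 2.25 ± 0.24, adjusted p = 4.2e-08) and Rprl2 (3.98 ± 0.51, adjusted p = 6.7e-07) were higher as well.

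Among the remaining structured RNAs, Vaultrc5, a vault RNA, held 361 and 287 CPM in TET2 CLIP against 72.6 and 118 CPM in input (log2 change 1.70 ± 0.20, adjusted p = 2.1e-07). The Y RNAs, partners of the Ro60 protein, were higher at Rny1 (1.35 ± 0.20) and Rny3 (1.05 ± 0.21), and both calls were lost without TET2 CLIP replicate 1. The 7SL RNAs of the signal recognition particle were higher at Rn7s1 (0.99 ± 0.21), Rn7s2 (0.83 ± 0.22) and Rn7s6 (3.23 ± 0.88). Their replicates were uneven. Rn7s2 held 825 and 1646 CPM against 692 and 674 CPM, and Rn7s6 held 4.27 and 52.9 CPM against 2.5 and 2.27 CPM. All 3 of the 7SL calls were lost without TET2 CLIP replicate 2, and those of Rn7s2 and Rn7s6 also without either input of clone 75. The call of Rn7s2 was lost in the fit to clone 75 alone (adjusted p = 0.053) and in the DESeq2 Wald test (adjusted p = 0.12) too. Terc, the template RNA of telomerase, went the other way, with 29.9 and 22.7 CPM against 67.6 and 65.8 CPM (-1.28 ± 0.38, adjusted p = 0.027), a call lost without either TET2 CLIP library, without input replicate 2 and with scaling by library totals.

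**Figure D4:**
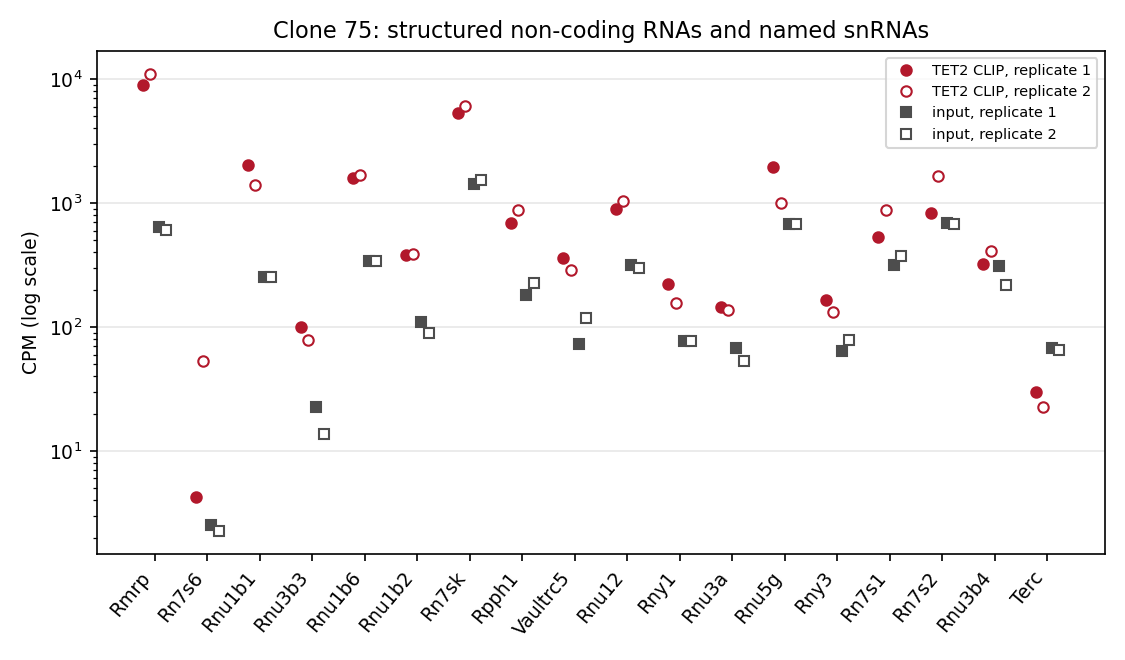
CPM of the named snRNA and structured RNA genes in clone 75, on a log axis, with TET2 CLIP as circles, input as squares and 1 symbol per library. Rmrp shows the widest gap among the well-counted genes, 8935 and 11091 CPM against 647 and 612 CPM, while Terc lies below its inputs at 29.9 and 22.7 CPM against 67.6 and 65.8 CPM.

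5S rRNA is the small rRNA of the large ribosomal subunit that RNA polymerase III makes, and its gene copies and pseudogenes share reads in the same way. Of 180 rows 61 were tested, and 47 were called higher and 0 lower, with 2 lower before adjustment (p under 0.05) and 0 by DESeq2. The median log2 change was 1.93, and 29 genes were called higher without TET2 CLIP replicate 1. n-R5s162 (chromosome 6, 60250792 to 60250910) held 690.2 and 532 CPM in TET2 CLIP against 85.1 and 110.3 CPM in input (2.62 ± 0.18, adjusted p = 5.8e-12). n-R5s136, n-R5s88 and n-R5s210 had log2 changes of 2.24, 2.56 and 2.47. The 5.8S rRNA, which RNA polymerase I makes with the 18S and 28S rRNAs, was lower. n-R5-8s1 held 100.4 and 71.8 CPM against 793 and 738 CPM (-3.10 ± 0.22, adjusted p = 1.1e-11), so these 2 small rRNAs of the large subunit moved in opposite directions.

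The snoRNAs and scaRNAs, which guide modification of rRNA and snRNA, leaned downward. Of all 56 tested, 10 were lower and 3 higher, beside 3.94% lower and 6.18% higher over all genes tested, and none stayed higher without either input of clone 75. Of 10 tested H/ACA and scaRNA genes with family names, 0 were higher, and 0 before adjustment or by DESeq2, and 2 were lower, with a median log2 change of -0.61. Of 19 C/D genes 1 was higher and 3 lower, with a median of -0.48. Snora78 held 17.1 and 22.7 CPM in TET2 CLIP against 100.2 and 121 CPM in input (-2.57 ± 0.33, adjusted p = 8.6e-07). Snord17 held 51.3 and 75.5 CPM against 224 and 189 CPM (-1.75 ± 0.23, adjusted p = 1.1e-06), and Snord83b (-1.60 ± 0.25), Snord13 (-1.28 ± 0.20) and Scarna2 (-0.70 ± 0.18) were lower too. Snord49a was the 1 higher gene of the C/D list, which leaves out the U3 genes counted above among snRNAs. It held 76.9 and 151 CPM against 46.3 and 56.8 CPM (0.97 ± 0.28, adjusted p = 0.021), a call lost in the DESeq2 Wald test (adjusted p = 0.051) and without either clone 75 input or TET2 CLIP replicate 2. The call of Scarna2 was lost without input replicate 2 and with scaling by library totals.

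The miRNA genes had few counts, and 16 of 1204 rows were tested, with a median log2 change of 0.92. Of these 16, 5 were called higher and 3 lower, beside 6.18% and 3.94% of all genes tested. In the fit to clone 75 alone, 9 miRNA genes passed the filter, with 2 called higher and 4 lower and a median of 0.17. The median and balance over the 16 thus depend on genes that passed through clone 65. Their mature sequences are shown for the 8 called genes, since the seed (bases 2 to 8, in capitals) decides which messenger RNAs a miRNA binds. The arm that the reads came from is not given by the table, so where RefSeq (GRCm38.p6), the source of the sequences, lists both arms the 5p arm is printed.
let-7g-5p, higher: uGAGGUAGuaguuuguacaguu
let-7a-5p, higher: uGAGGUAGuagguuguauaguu
miR-16-5p, higher: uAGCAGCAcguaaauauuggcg
miR-301b-5p, higher: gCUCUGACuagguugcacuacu
miR-1983, higher: cUCACCUGgagcauguuuucu
miR-378c, lower: aCUGGACUuggagucagaagc
miR-2137, lower: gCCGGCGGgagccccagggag
miR-6240, lower: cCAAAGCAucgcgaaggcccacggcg

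The let-7 genes printed share a seed, GAGGUAG, and the other 6 sequences each have their own. let-7 miRNAs are known to restrain the self-renewal programme when stem cells differentiate. Mirlet7g had 5 counts in each TET2 CLIP library and Mirlet7a-1 had 7 and 2, against 0 counts in both inputs of both genes. Set against a floor of 3 counts over the input group, Mirlet7g was 13.7-fold higher and Mirlet7a-1 12.3-fold higher. On the same floor, Mir16-1, with 9 and 1 counts against 0, was 13.7-fold higher, and Mir301b, with 5 and 1 against 0, was 8.19-fold higher. The ratios take the few TET2 CLIP counts as exact, so they are not lower limits of the change. These 4 genes passed the count filter through clone 65 alone, and all 4 calls were lost without either input of clone 75. Mir1983 had the smallest p, with 87.6 and 45.3 CPM in TET2 CLIP against 5.01 and 5.90 CPM in input (log2 change 3.64 ± 0.46, adjusted p = 5.1e-07). On the other side, Mir378c had 2 and 0 counts in TET2 CLIP against 52 and 112 in input (adjusted p = 2.1e-05), a ratio of rates of 0.05 with an exact 95% counting interval of 0.006 to 0.183. Mir2137 had 0 and 1 counts against 34 and 99 (adjusted p = 0.00060), a ratio of 0.0308 (0.000774 to 0.175). Mir6240 had 10 and 11 counts against 70 and 199 (-1.64 ± 0.34, adjusted p = 0.00094). The calls of Mir2137 and Mir6240 were lost without TET2 CLIP replicate 1.

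RNAs encoded by the mitochondrial genome had a median log2 change of -0.36 over 19 genes. Of these, 1 was called higher and 3 lower, beside 6.18% and 3.94% of all genes tested. mt-Rnr2, the large mitochondrial rRNA, held 2453 and 1375 CPM in TET2 CLIP against 5241 and 4878 CPM in input (-1.39 ± 0.23, adjusted p = 7.3e-05). Of 8 mitochondrial tRNAs, mt-Tp, which carries proline, was lower (-0.98 ± 0.21, adjusted p = 0.0015) and mt-Tl1, which carries leucine, higher (0.98 ± 0.25, adjusted p = 0.0091). The mitochondrial tRNAs had a median log2 change of -0.37, beside 2.56 for the nuclear tRNA genes. Of 2 mitochondrial rRNAs 1 was called lower, and of 9 mitochondrial mRNAs 1 was lower and 0 higher (0 before adjustment and 0 by DESeq2), with a median of -0.26. The 1 lower mitochondrial mRNA became 7 without TET2 CLIP replicate 1 of clone 75, 4 with DESeq2 size factors, with the replicate block, with the clone 75 filter or without a filter, and 0 with scaling by library totals or without any 1 of the 4 inputs. The call of mt-Tl1 was lost in the DESeq2 Wald test and without input replicate 2 or TET2 CLIP replicate 1. mt-Nd1, a subunit of respiratory complex I, held 737 and 313 CPM against 950.4 and 841 CPM (-0.71 ± 0.22, adjusted p = 0.041). That call was lost in the fit to clone 75 alone (adjusted p = 0.15), in the DESeq2 Wald test (adjusted p = 0.19) and with scaling by library totals. It was also lost without any 1 of 7 of the 8 libraries, TET2 CLIP replicate 1 of clone 75 being the exception.

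Among long noncoding RNAs that stay in the nucleus, 4 of 11 tested were called higher and 1 lower, with a median log2 change of 0.11. These counts stand beside 6.18% higher and 3.94% lower over all genes tested. Without input replicate 2 or TET2 CLIP replicate 1 of clone 75, 2 were higher and 0 lower. Neat1, the scaffold of paraspeckles, held 1968 and 1911 CPM in TET2 CLIP against 913 and 936 CPM in input (log2 change 1.07 ± 0.17, adjusted p = 2.6e-05). Tsix held 515 and 374 CPM against 203 and 217 CPM (1.11 ± 0.17, adjusted p = 1.3e-05), and Xist, the RNA that coats the silenced X chromosome, 564 and 446 CPM against 318 and 241 CPM (0.90 ± 0.17, adjusted p = 0.00027). Tsix and Xist overlap on opposite strands and the use of strand in counting is not given in the sources used here, so their reads cannot be told apart. Kcnq1ot1 was higher (0.60 ± 0.17, adjusted p = 0.020), a call lost without either input of clone 75, without TET2 CLIP replicate 1 and without either input of clone 65. The call of Xist was lost without input replicate 2 or TET2 CLIP replicate 1. Malat1, the nuclear speckle RNA that lies beside Neat1, was lower, with 4769.8 and 5230.2 CPM against 7690.5 and 7774 CPM (-0.63 ± 0.18, adjusted p = 0.020). Named after its value was seen, it was the 1 lower gene of the list, which had 0 lower with scaling by library totals.

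Host genes of snoRNAs, which are spliced noncoding RNAs with a snoRNA in their introns, had a median log2 change of 0.32. Of 13 tested, 3 were higher, and 0 lower by edgeR, before adjustment or by DESeq2. Over all genes tested, 6.18% were higher and 3.94% lower. Snhg8 held 74.8 and 75.5 CPM in TET2 CLIP against 21.3 and 26.3 CPM in input (1.59 ± 0.31, adjusted p = 0.00044). Snhg1 (0.69 ± 0.16) and Gas5 (0.55 ± 0.17) were called higher by a smaller margin. Their calls were lost without either input of clone 75 or without TET2 CLIP replicate 1, and that of Gas5 also within clone 75 alone (adjusted p = 0.057). The lncRNAs called lower with the smallest p were the unnamed genes Gm15564 (chromosome 16, 35966751 to 35983329), at 118 and 98.2 CPM against 1064 and 884 CPM (-3.14 ± 0.21, adjusted p = 1.9e-12), and Gm26691, at 4.27 and 11.3 CPM against 269 and 347 CPM (-5.51 ± 0.41, adjusted p = 2.0e-11).

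Replication-dependent histone messenger RNAs, which end in a stem-loop in place of a poly(A) tail, had a median log2 change of 0.44. Of 52 tested, 4 were called higher and 1 lower, beside 6.18% and 3.94% of all genes tested. So few calls tell little about histone genes. Hist1h4d held 91.9 and 52.9 CPM in TET2 CLIP against 22.5 and 36.3 CPM in input (1.26 ± 0.33, adjusted p = 0.0096), and Hist1h2bg and Hist1h4h were higher by 0.97 and 1.04 on the log2 scale. Hist1h1c, a linker histone, was lower (-0.79 ± 0.21, adjusted p = 0.015). All 4 of these calls were lost without TET2 CLIP replicate 1 or, for Hist1h4h, TET2 CLIP replicate 2, and without at least 1 input of clone 75.

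Protein-coding genes were mostly called neither way. Of 8519 tested, ribosomal protein genes included and histones set apart, 218 were higher (2.56%) and 312 lower (3.66%), beside 6.18% and 3.94% of all genes tested, with a median log2 change of 0.00. Changes of over 8-fold were seen in 15 of the higher and 66 of the lower genes. The median gene span was 24609 bases for higher, 24910 for lower and 26690 for uncalled coding genes. The share with an annotated small RNA gene inside the span was 9.63% of higher, 9.94% of lower and 9.84% of uncalled genes.

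The higher coding genes with the smallest p were a mixed group. Col4a2, a chain of basement membrane collagen IV (chromosome 8, 11312805 to 11449287), held 600.5 and 819 CPM in TET2 CLIP against 28.8 and 35 CPM in input (log2 change 4.41 ± 0.22, adjusted p = 1.4e-14). Ros1, a receptor tyrosine kinase (chromosome 10, 52044863 to 52195398), held 207 and 268 CPM against 1.25 and 2.72 CPM (6.59 ± 0.35, adjusted p = 4.7e-14). Hsf1, the master factor of the heat shock response (chromosome 15, 76477362 to 76501155), held 1874 and 2039 CPM against 116 and 134 CPM (3.95 ± 0.23, adjusted p = 1.7e-13). In all 3 both TET2 CLIP libraries lay far above both inputs. Nipa2, a magnesium transporter (3.43 ± 0.20), and Plag1, a zinc finger transcription factor (3.60 ± 0.23), were higher too. No RefSeq small RNA gene lies within the spans of these 5 genes, and which part of each gene the reads came from is not given by the table.

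Among the lower coding genes with the smallest p, Enam had almost no counts in TET2 CLIP. Enam, which encodes the tooth protein enamelin (chromosome 5, 88487975 to 88506049), held 2.14 and 3.78 CPM in TET2 CLIP, 1 count in each library, against 337 and 426 CPM in input (adjusted p = 1.7e-13), a ratio of rates of 0.00679 with an exact 95% counting interval of 0.000821 to 0.0246. Gata3, a transcription factor of trophoblast and T cells (chromosome 2, 9857078 to 9887953), held 12.8 and 11.3 CPM against 407 and 432 CPM (-5.09 ± 0.31, adjusted p = 4.2e-13). Ermap, an erythrocyte membrane protein gene, held 15.0 and 3.78 CPM against 369 and 432 CPM (-5.21 ± 0.33, adjusted p = 5.7e-13). All 3 genes are known from tissues other than stem cells, and for each both TET2 CLIP libraries lay far below both inputs. Nos1, neuronal nitric oxide synthase (-3.71 ± 0.25), Mcm3, a subunit of the replicative helicase (-2.94 ± 0.21), and Strap, a partner of the SMN complex (-3.38 ± 0.27), were lower as well, as were Gm14236 (-4.52) and Gm38077 (-4.07), which have no RefSeq entry.

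Messenger RNAs of the tRNA machinery are to be read beside the 6.18% of all tested genes called higher and the 3.94% called lower. Of 38 tested aminoacyl-tRNA synthetase and partner genes, edgeR called 0 higher (before adjustment 1, and 0 by DESeq2) and 1 lower, with a median log2 change of -0.17. The 1 was Lars2, mitochondrial leucyl-tRNA synthetase, at 3419 and 3048 CPM in TET2 CLIP against 23079 and 17725 CPM in input (-2.66 ± 0.20, adjusted p = 3.2e-11). Lars2 took 0.352% and 0.316% of TET2 CLIP counts and 2.02% and 1.71% of input counts. All 41 rows of the list took 0.514% and 0.449% against 2.16% and 1.86%, so Lars2 held most of the list's counts. Whether these reads came from its messenger RNA is not given by the table. Of 27 tested genes for tRNA processing, modification and cleavage, edgeR called 0 either way (before adjustment 1 higher and 0 lower, and 0 by DESeq2), with a median of -0.13, or 0.01 with scaling by library totals.

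Of 35 tested genes for RNA and DNA methylation 1 was called, and with 6.18% of all genes called higher and 3.94% lower, so small a number tells little about these genes. Of 8 tested genes for RNA cytosine methylation, among them the NSUN methyltransferases, edgeR called 0 (before adjustment 1 higher and 0 lower, and 0 by DESeq2), with a median of -0.20. Of 12 tested TET and DNA methylation genes, edgeR called 0 (before adjustment 0 higher and 1 lower, and 0 by DESeq2), with a median of -0.03, or 0.14 with scaling by library totals. Tet2 itself held 355 and 295 CPM in TET2 CLIP against 336 and 325 CPM in input (log2 change -0.00 ± 0.16, adjusted p = 0.996), and Tet1 held 746 and 793 CPM against 804 and 769 CPM (-0.03 ± 0.17, adjusted p = 0.94). Uhrf1, which guides the maintenance methyltransferase, was the member nearest to a call, at 122 and 117 CPM against 192 and 163 CPM (-0.53 ± 0.19, adjusted p = 0.078). It passed within clone 75 alone (adjusted p = 0.049) and without either TET2 CLIP library of clone 65. The other 9 members had log2 changes of -0.79 (Idh1) to 0.43 (Tet3). Of 15 tested m6A genes, with a median of -0.16, edgeR called Wtap alone, a subunit of the m6A writer, at 57.7 and 94.4 CPM against 522 and 468 CPM (-2.78 ± 0.23, adjusted p = 1.6e-10).

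Translation factor genes leaned downward. Of 19 tested translation factor genes with a 5′ terminal oligopyrimidine tract, 5 were lower, beside 3.94% of all genes tested, and 0 higher by edgeR, before adjustment or by DESeq2, with a median log2 change of -0.52. Eef2, the translocation factor, held 182 and 268 CPM in TET2 CLIP against 412 and 419.5 CPM in input (-0.93 ± 0.19, adjusted p = 0.00081). Rack1 (-0.84 ± 0.17), Eef1a1 (-0.84 ± 0.19) and Pabpc1 (-0.69 ± 0.17) were lower too. The list had 3 lower genes without input replicate 2 or TET2 CLIP replicate 1 of clone 75 and 8 without either TET2 CLIP library of clone 65. Of 81 tested ribosomal protein genes, edgeR called 8 lower and 0 higher (before adjustment 3 higher, and 0 by DESeq2), among them Rps4l, Rpl8 and Rplp0, with log2 changes of -2.02 to -0.87. Libraries did not overlap and were lower in TET2 CLIP for 22 of the 81, beside 23.9% of all genes tested. The median of the 81 genes was -0.04, and 0.11 with scaling by library totals, which left 3 lower and 1 higher. Without input replicate 1 of clone 75, 5 were lower, without input replicate 2 or TET2 CLIP replicate 1 of that clone 2 were lower, and without either TET2 CLIP library of clone 65 there were 12. The call of Eef1a1 was lost without input replicate 2 or TET2 CLIP replicate 1, and that of Pabpc1 with scaling by library totals.

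The SR, hnRNP and heat shock lists stand beside 6.18% of all tested genes called higher and 3.94% lower. Of 30 tested SR and hnRNP genes, whose proteins coat pre-mRNA, 1 was higher and 4 lower, with a median of -0.04. With scaling by library totals the median was 0.11, with 1 lower and 3 higher. The lower count was 2 without TET2 CLIP replicate 1 of clone 75 or either input of clone 65, and 8 without either TET2 CLIP library of clone 65. Hnrnpa3 was the higher gene, at 237 and 185 CPM in TET2 CLIP against 57.6 and 53.6 CPM in input (1.98 ± 0.20, adjusted p = 8.5e-09), and Hnrnpc, Hnrnpul2 and Hnrnpa0 were among the lower. Of 18 heat shock genes, Hsf1 and Hsf2 were higher and Hsp90ab1 lower (-0.65 ± 0.17, adjusted p = 0.011), with a list median of -0.18. The call of Hsf2 (0.88 ± 0.28, adjusted p = 0.043) was lost in the fit to clone 75 alone (adjusted p = 0.070) and without any 1 of the 8 libraries. That of Hsp90ab1 was lost without input replicate 2 and with scaling by library totals.

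Pluripotency, marker and reference lists also stand beside 6.18% of all tested genes called higher and 3.94% lower. Of 22 tested pluripotency genes, Dppa5a (-1.74 ± 0.38, adjusted p = 0.0017) and Trim28 (-0.67 ± 0.17, adjusted p = 0.0070) were lower and edgeR called 0 higher (before adjustment 1, and 0 by DESeq2). Their median was -0.16, or -0.00 with scaling by library totals, which gave 1 higher and 1 lower. Without TET2 CLIP replicate 1 of clone 75, 2 were higher and 1 lower. The call of Dppa5a was lost without input replicate 2 or TET2 CLIP replicate 1, and that of Trim28 with scaling by library totals. On wider marker lists than those summed above, of 6 tested extraembryonic endoderm genes Col4a2 was higher, and Sparc, Lama1 and Lamc1, which like Col4a2 encode parts of the extracellular matrix, were lower. The call of Lamc1 was lost with scaling by library totals, with the replicate block, without any 1 of the 4 inputs and without TET2 CLIP replicate 1 of clone 75, and that of Lama1 without the same TET2 CLIP library, which left 1 lower gene of the list. Fibronectin (Fn1) was lower (-0.64 ± 0.17, adjusted p = 0.013), the only tested member of the fibroblast list, a call lost without either input or TET2 CLIP replicate 1 of clone 75 and with scaling by library totals. Of 2 tested trophoblast markers Gata3 was lower and 0 were higher (before adjustment 1, and 0 by DESeq2). Of 9 tested reference genes edgeR called 0 (before adjustment 0 higher and 1 lower, and 0 by DESeq2), with a median of -0.11, or 0.05 with scaling by library totals, and the 1 primed-state gene tested was not called (0 before adjustment and 0 by DESeq2).

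Clone 65 was handled the same way, with 849 genes higher (8.22% of those tested) and 295 lower (2.85%). Of the genes called higher in clone 75, 402 were called higher in clone 65 as well, which is 62.9% of the 639 genes of clone 75 and 47.4% of the 849 of clone 65. Of the lower genes 122 were shared, 30.0% of clone 75's 407 and 41.4% of clone 65's 295. Across the 10334 genes, the log2 changes of the clones had a Pearson r of 0.56, a description over genes, which are not independent replicates. The genes called higher in clone 75 had a median log2 change of 1.91 there and of 2.58 in clone 65, and those called lower had medians of -1.64 in clone 75 and -0.79 in clone 65. Since these genes were chosen by their calls in clone 75, the medians are descriptions only.

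The difference of the clones' changes was tested for each gene. It was called for 34 genes higher in clone 75 (0.329% of those tested) and 229 lower (2.22%). This balance rests on the scaling. With library totals alone the median difference moved by 0.56, and 567 genes were higher and 102 lower in clone 75. Without input replicate 2 of clone 75 there were 4 higher and 74 lower, without input replicate 1 or 2 of clone 65 there were 6 and 12 higher and 120 and 111 lower, and without TET2 CLIP replicate 2 of clone 65 there were 99 higher. Without TET2 CLIP replicate 1 or 2 of clone 75 there were 56 and 75 higher. Small RNA genes were among those with the smaller change in clone 75. Called lower in clone 75 than in clone 65 were 49 of 166 snRNA genes, 16 of 62 rRNA genes, 6 of 80 tRNA genes and 6 of 10 structured RNA genes, and 0 of any of these classes were called higher. With scaling by library totals the lower calls came to 5 of 61 for 5S rRNA in place of 16, 2 for structured RNA in place of 6, 2 for named snRNA in place of 5 and 4 for tRNA in place of 6, with 0 higher in these lists. The 37 anticodon sums all had a smaller log2 change in clone 75, with a median of 2.21 against 3.68 in clone 65, and 9 of them were called lower.

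**Figure D5:**
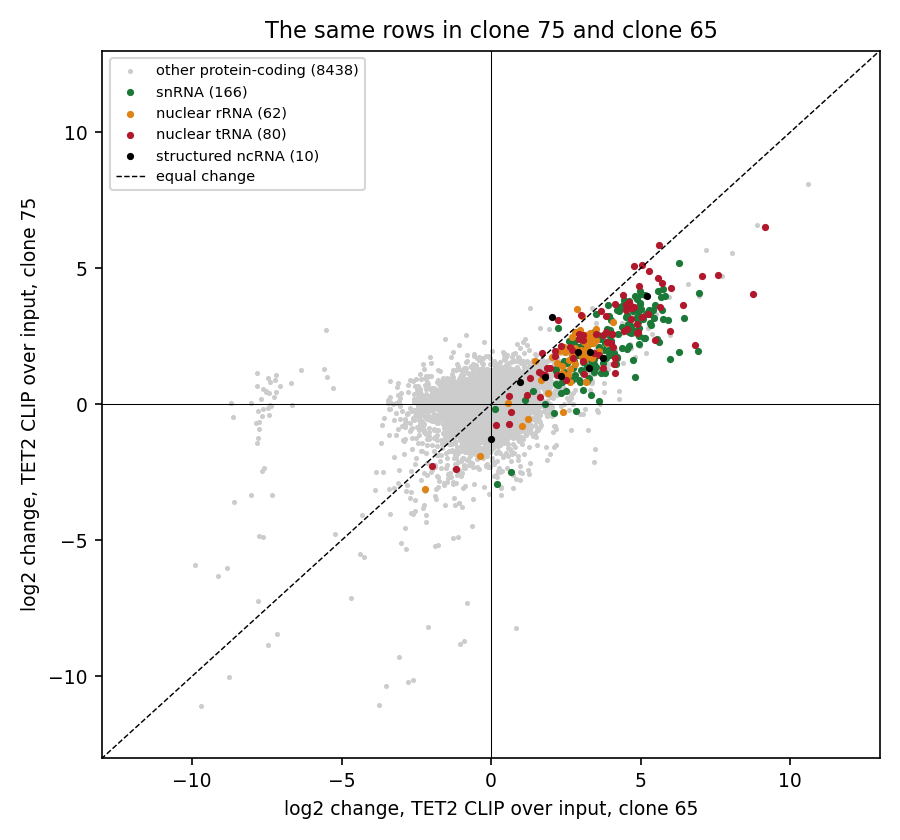
Log2 change, TET2 CLIP over input, of each tested gene in clone 75 against that in clone 65, with small RNA classes in colour. Genes called higher in clone 75 had medians of 1.91 in clone 75 and 2.58 in clone 65, and most small RNAs lie on the side of the larger change in clone 65.

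Among single genes, those with the smallest p for a smaller change in clone 75 included U5 snRNA. Rnu5g had a log2 change of 1.14 in clone 75 and 3.81 in clone 65, a difference of -2.67 ± 0.30 (adjusted p = 1.9e-06). Its TET2 CLIP levels were 1949 and 1001 CPM in clone 75 and 5201 and 4503 CPM in clone 65, and its inputs 675 CPM in each library of clone 75 and 318 and 373 CPM in clone 65. Gm25313, an snRNA gene nearby on chromosome 9 (65196572 to 65196687), differed by -2.55 ± 0.26 (adjusted p = 3.8e-07) and was not called in clone 75 (357 and 185 CPM in TET2 CLIP against 210.4 and 191 CPM in input). So did the coding genes Noxred1 (-2.76 ± 0.28), Ralgapa2 (-2.48 ± 0.26) and Cspg5 (-2.53 ± 0.29) and the unmatched row Gm12896 (-2.37 ± 0.27). Ralgapa2 was called in clone 65 and not in clone 75, with 654 and 736 CPM in TET2 CLIP against 705 and 579.8 CPM in input in clone 75, and 2844 and 2229.5 CPM against 474 and 365 CPM in clone 65.

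The genes with a more positive change in clone 75 were fewer, and at several of them the change in clone 65 was the one called, and negative. Rbm14, an RNA-binding protein gene, held 528 and 408 CPM in TET2 CLIP against 183 and 235 CPM in input in clone 75 (log2 change 1.16 ± 0.18), and 209.9 and 337 CPM against 286 and 275 CPM in clone 65 (-0.03). The difference was 1.18 ± 0.27 (adjusted p = 0.011), a call lost without input replicate 1 of either clone. Plppr3 was called higher in clone 75 (0.65, adjusted p = 0.043) and lower in clone 65 (-1.22, adjusted p = 0.043), 1 of 5 genes called in opposite directions. Its call in clone 75 was lost in the fit to clone 75 alone (adjusted p = 0.065) and in the DESeq2 Wald test (adjusted p = 0.064). It was also lost without any 1 of the 8 libraries. Syngr1 (difference 1.64 ± 0.38) had a log2 change of 0.41 in clone 75, not called, and of -1.23 in clone 65, called lower. Nnat (2.07 ± 0.49) had 0.75 in clone 75, not called, and -1.33 in clone 65, called lower. Gm37736 (1.69 ± 0.40), with no RefSeq entry, had 1.38 in clone 75, called higher, and -0.31 in clone 65. Eid3 had 17 and 8 counts in TET2 CLIP of clone 75 against 12 and 34 in input and none in TET2 CLIP of clone 65, so its fitted difference of 8.96 depends on the prior count. Neat1 was called higher in clone 75 and not in clone 65, and the difference itself passed, at 0.92 ± 0.24 (adjusted p = 0.032), although that call was lost without any 1 of the 4 inputs.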

How the data were processed

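TET2 CLIP and input were compared in clone 75, with the libraries of clone 65 in the same fit. The values are counts per gene as deposited by the authors, not normalized. The build was mm10 and the tools were STAR 2.5.3a, Bowtie2 2.2.6, cutadapt and UMI-tools, per the submitters' processing notes. What each tool did, how genes were annotated and counted, whether strand was used and how reads with several matches were treated are not given in the sources used here. Gene classes and coordinates came from RefSeq GRCm38.p6, which matched 37599 of 53900 rows.

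Groups came from the sample titles. Counts were tested with edgeR 4.0.16 in R 4.3.3 (TMM scaling, default count filter over the 4 groups, robust quasi-likelihood fit, Benjamini-Hochberg adjusted p under 0.05), as TET2 CLIP over input in clone 75 and as that change minus the change in clone 65. Genes named were the 12 called each way with the smallest p and no overlap of libraries, 10 tRNA genes, up to 4 called genes of each list, all members of the named snRNA, structured RNA and TET lists, the called miRNA genes, and the 6 genes each way with the smallest p for the clone difference. Members and lists were chosen with earlier results of these data known. On counts simulated for the clone 75 comparison over 9731 genes, 40.6% of genes changed 2-fold, 76% of those changed 4-fold and 0.021% of unchanged genes were called. The simulation averaged the TET2 CLIP and input profiles and changed 96 genes 2-fold and 96 genes 4-fold, up or down. It held no shift in RNA class like that of the real libraries, so its rates do not cover such a shift. Alternatives were other scalings and filters, DESeq2 1.42.0, the replicate number as a block, clone 75 alone, and leaving out each library. Libraries held 221060 to 4729463 counts. The sequencing run label was the same for all 8 CLIP libraries, so no batch could be compared.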

Additional observations from a re-analysis of the deposited data

Results flagged for a closer look

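The difference between the clones in the change with TET2 CLIP passed the adjusted threshold of edgeR's quasi-likelihood test for 42 of the named genes. Values are log2 differences, clone 75 minus clone 65, so a negative one means a more negative change, or a smaller rise, in clone 75. With scaling by library totals alone, the median difference over all genes moved by 0.56, so each value is relative to the scaling used.

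A large group were small RNAs with a more positive change in clone 65. Among snRNA genes called higher in clone 75 the difference was -2.67 at Rnu5g, -1.94 at Gm25541, -1.85 at Gm23966, -1.49 at Gm24018, -1.41 at Rnu12, -1.10 at Rnu1b1 and -1.01 at Rnu1b2. At the snRNA-class genes Gm25313 and Rnu3b4, which were not called in clone 75, it was -2.55 and -0.92. Among structured RNAs it was -2.03 at Vaultrc5, -1.93 at Rny1, -1.38 at Rpph1, -1.27 at Rny3, -1.22 at Rmrp and -0.98 at Rn7sk. It was -2.24 at chr10.tRNA866-AspGTC, -1.19 at the 5S gene n-R5s136 and -1.37 at Snord49a. Outside the small RNAs, the histone messenger RNA gene Hist1h4h had a difference of -1.44.

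Among genes called higher in clone 75, the difference was -2.53 at Cspg5, -2.17 at Col4a2, -2.0 at Hsf1, -1.37 at Nipa2, -1.16 at Plag1 and -1.28 at mt-Tl1. Genes not called in clone 75 but higher in clone 65 were Noxred1 (-2.76), Ralgapa2 (-2.48) and Gm12896 (-2.37). Genes lower in clone 75, with a more negative change than in clone 65, were Ermap (-3.34), Rps4l (-2.39), Gm38077 (-2.27), Nos1 (-2.17), Mcm3 (-1.65), Gm15564 (-1.40) and mt-Tp (-1.28).

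The change was more positive in clone 75 at Nnat (2.07), Plppr3 (1.87), Gm37736 (1.69), Syngr1 (1.64), Rbm14 (1.18) and Neat1 (0.92). Eid3 had a fitted difference of 8.96, which depends on the prior count since it had no counts in TET2 CLIP of clone 65. At Nnat, Plppr3 and Syngr1 the genes were called lower in clone 65.

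Of the 42 calls, 13 held under every alternative run, those of Vaultrc5, Rny1, Rnu12, Gm25541, Gm24018, Gm25313, Col4a2, Hsf1, Cspg5, Ermap, Noxred1, Ralgapa2 and Gm12896. The call was lost without at least 1 single library for 29 genes, and for Rn7sk, Plag1 and Snord49a without any 1 of 6 libraries, and for Rnu3b4 of 7. It was lost with scaling by library totals for 18 genes, where the difference was -0.34 at Rnu3b4, -0.41 at Rn7sk, -0.45 at Rnu1b2, -0.53 at Rnu1b1, -0.59 at Plag1, -0.62 at n-R5s136, -0.65 at Rmrp, -0.72 at Rny3 and mt-Tp, -0.73 at mt-Tl1, -0.80 at Nipa2 and Snord49a, -0.81 at Rpph1 and Gm15564, -0.88 at Hist1h4h, -1.08 at Mcm3, -1.70 at Gm38077 and -1.82 at Rps4l. What sets the clones apart was not tested.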

How the results depend on the processing

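Scaling by library totals gave 271 lower genes in clone 75, 567 higher and 102 lower genes for the clone difference, and 1 lower tRNA gene. Without the count filter 436 genes were higher and 601 lower, the clone difference had 59 higher and 141 lower genes, and the tRNA median was 1.62. Summed over anticodons, 30 tRNA sums were higher and 0 lower, with a median of 2.21. The titles number the libraries and do not say whether same-numbered ones came from the same culture. The correlation of same-numbered deviations was 0.0751 in clone 75 and -0.00324 in clone 65, which cannot show whether they did. With the replicate block 382 genes were higher, 264 lower, and 13 higher for the clone difference.

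Leaving out 1 library at a time gave 261 to 646 higher and 219 to 756 lower genes, 4 to 99 higher and 74 to 278 lower for the clone difference, and 20 to 55 higher and 1 to 3 lower tRNA genes with a median of 1.79 to 2.51. Without the row Gm26917, an alternative chosen after seeing the data, the ratio of mean shares was 2.74 for tRNA, 3.61 for snRNA, 1.13 for histones, 1.05 for lncRNA, 0.736 for snoRNA and scaRNA and 0.771 for unmatched rows. It fell below 1 for other coding genes (0.916), pseudogenes (0.982) and ribosomal protein genes (0.876). The cause was not tested.

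Over 127 named genes, 1711 of 1884 values kept their direction and side of the threshold, 163 lost the call, 10 gained it and 0 reversed. The fit to clone 75 alone gives no clone difference, and some miRNA genes, Idh1 and Rn7s6 were not tested under every alternative. Depth limits genes scarce in input: the TET2 CLIP libraries held 453944 and 254996 counts, so rows with a few counts could not be tested.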

Other observations

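Of the 740 tested rows with no RefSeq entry, 113 were called higher in TET2 CLIP of clone 75 and 34 lower, with a median log2 change of 0.60. Of 350 tested pseudogenes, 34 were higher and 22 lower, with a median of -0.12. Both are beside 6.18% of all genes called higher and 3.94% called lower.

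By amino acid, tRNA genes ranged widely in how many were called. All 7 tested threonine tRNA genes were higher, with a median log2 change of 3.69, and 11 of 12 leucine tRNA genes were, with a median of 2.41. Of 10 tested glycine tRNA genes 5 were higher and 1 lower, and of 7 alanine tRNA genes 3 were higher, with a median of 0.95. None of the 57 cysteine tRNA rows had enough counts to be tested. Whether amino acids differ was not tested.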
